A study of Mus musculus with 8 samples.

Results

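Embryonic stem (ES) cells in which the transcription factor Sall4 was depleted and its isoform Sall4a alone was put back were compared with cells depleted of both isoforms. The members were chosen by the array titles: the 2 arrays titled as having Sall4a without Sall4b, called Sall4a-only here, and the 2 titled as lacking both, called depleted, which makes 4 of the 8 arrays of the study. All cells were CJ7, an established line of mouse ES cells, with no transgenic animal or other genotype named. Sall4a-only and Sall4b-only cells received a short hairpin RNA (shRNA) against Sall4, and with it the coding sequence of Sall4a or of Sall4b in a form immune to that shRNA. Depleted cells received the shRNA alone, and control cells a lentivirus without any shRNA. Every group had 24 hours of lentivirus with polybrene at 2.5 mcg/mL, then ES cell medium with leukaemia inhibitory factor (LIF) and puromycin at 2 mcg/mL, and was collected 48 hours after infection. RNA was amplified before labelling and hybridised to a mouse expression array. Arrays of a group are labelled biological replicates, with nothing on separate cultures, so a p-value here refers to array-to-array spread that may be partly technical. After probe sets called present on fewer than 2 of the 8 arrays had been left out, 14027 genes were measured, each by its brightest probe set.

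Sall4 is a zinc-finger protein that ES cells and the inner cell mass of the blastocyst express strongly. Alternative splicing gives a long form, Sall4a, and a shorter form, Sall4b, which can pair with themselves and with each other. Sall4 works with Pou5f1 (Oct4), Nanog and Sox2 on ES cell genes and recruits the histone deacetylase complex NuRD to others. Loss of Sall4 from ES cells has been linked to genes of the trophoblast, the epithelium that forms the placenta. The comparison asks what the long isoform by itself did to the expression of cells depleted of both forms.

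The targeted gene was checked first. Values below are log2 intensities, the level of a gene on that scale, with replicate 1 before replicate 2. By its brightest probe set, Sall4 stood at 13.16 and 13.14 in Sall4a-only cells, against 13.36 and 13.34 in depleted cells, with 13.22 and 13.28 in Sall4b-only and 13.88 and 13.75 in control cells. A second, dimmer probe set read 7.25 and 7.31 in Sall4a-only cells and 7.10 and 7.29 in depleted cells, with 7.72 and 7.17 in Sall4b-only and 8.50 and 8.38 in control cells. Both probe sets were highest on the control arrays, and on neither did both Sall4a-only arrays lie above both depleted arrays. Sall4a-only minus depleted was -0.20 (SE 0.11, adjusted p = 0.78) for the first probe set and 0.09 (SE 0.20, adjusted p = 0.979) for the second. The stretch of the transcript that each probe set reads, and whether the added cDNA holds it, are not given in the sources used here, so these values check the depletion and not the amount of added Sall4a. By these values the depletion was partial. Depleted cells were below control cells on both probe sets, and the brighter one still read 13.36 and 13.34.

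All 8 ES cell markers, Pou5f1 and Nanog among them, were called present on each of the 4 arrays, and their summed intensity was 80461 and 63928 in Sall4a-only cells and 70505 and 70120 in depleted cells. The Sall4a-only arrays differed more from each other than the depleted arrays did: 1160 genes lay more than 1 log2 apart between Sall4a-only replicates, against 100 between depleted replicates. Among markers of other cell types, the stromal or feeder sum followed this split most strongly. The sum of 3 neural markers was 3815 and 5816 in Sall4a-only cells, against 6964 and 5506 in depleted cells. The trophoblast, primitive endoderm, endothelial and blood or macrophage sums differed from depleted cells in the same direction on both Sall4a-only arrays. Endothelial markers summed to 1420 and 1117 in Sall4a-only cells, against 2460 and 2538 in depleted cells. Blood or macrophage markers summed to 2855 and 2098 in Sall4a-only cells, against 1636 and 1949 in depleted cells. The summed intensity of 8 measured stromal or feeder markers was 2409 and 18727 in Sall4a-only cells, against 26042 and 22503 in depleted cells, so replicate 1 stood far below the other 3 arrays. Present calls for these markers numbered 6 and 7 of 8 in Sall4a-only cells and 8 of 8 on both depleted arrays. The 5 measured trophoblast markers summed to 10784 and 7373 in Sall4a-only cells, against 2068 and 2818 in depleted cells, mostly through Krt7, with 4 of 5 present on every one of these arrays. The 6 primitive endoderm markers summed to 1628 and 1956 in Sall4a-only cells and to 2937 and 3107 in depleted cells, with 5 and 6 present in Sall4a-only and 6 of 6 in depleted cells. In these bulk samples, fewer cells of a type and less RNA per cell cannot be told apart, and the part of such cells in the gene results was not tested.

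**Figure D1:**
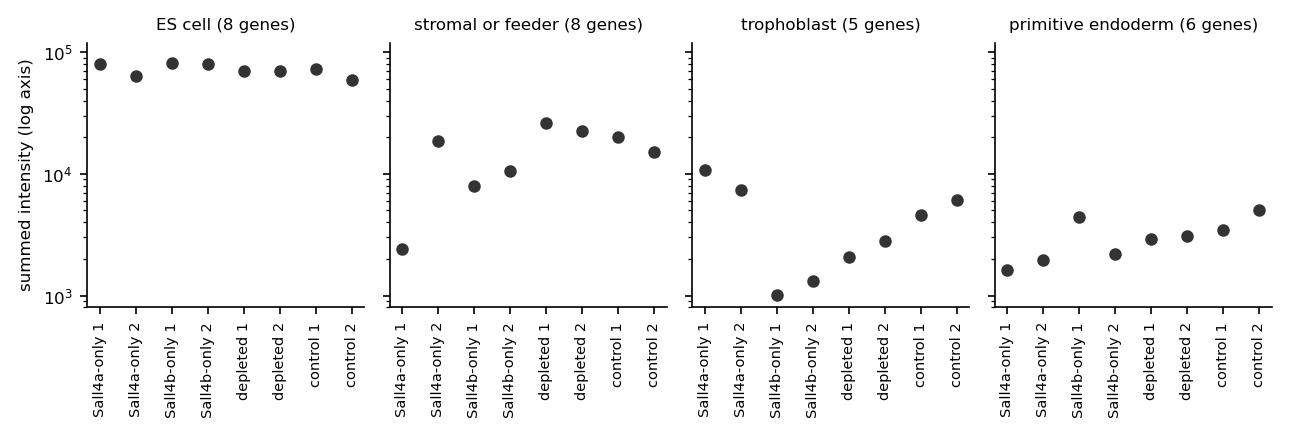
Summed intensity (log axis, the same in all panels) of marker genes on each of the 8 arrays, 1 point per array, Sall4a-only at the left. ES cell markers stayed between 58917 and 80926, while stromal or feeder markers were at 2409 on Sall4a-only replicate 1 and at 7915 or more on the other 7 arrays.

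No gene passed an adjusted p of 0.05 in the linear model of all 4 groups (limma, Benjamini-Hochberg over 14027 genes): 0 were called higher (0%) and 0 lower (0%) in Sall4a-only cells. A difference below is Sall4a-only minus depleted on the log2 scale, with its standard error. At an unadjusted p under 0.05, 622 genes (4.43%) were higher and 474 (3.38%) lower in Sall4a-only than in depleted cells, 1096 in all where 701 would be expected if no gene differed. That expectation takes 1 spread for all groups, whereas the replicate difference had a standard deviation of 0.622 in Sall4a-only and 0.272 in depleted cells. With only the 4 arrays of the comparison 482 were higher and 367 lower, and with array weights 457 and 373. The model had 4 residual degrees of freedom, and an exact permutation test of 2 against 2 arrays cannot give a two-sided p below 0.33. Single arrays weighed heavily: without Sall4a-only replicate 2 the model called 42 genes higher and 245 lower, and without replicate 1 it called 0 and 0. Those fits, here and below, have a lone Sall4a-only array, whose spread is taken entirely from the other groups, so their calls have no replication in Sall4a-only cells. The unadjusted counts were 278 higher and 279 lower without depleted replicate 1, 295 and 281 without depleted replicate 2, 1133 and 750 without Sall4a-only replicate 1, and 1025 and 1292 without Sall4a-only replicate 2. By sign alone 8073 genes were higher (57.6%) and 5948 lower (42.4%), with a median difference of 0.03 log2. Because the Sall4a-only arrays disagreed so often, genes were sorted by what each array showed against the mean of the depleted arrays. The sorting describes these arrays and is no test.

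Genes on which both Sall4a-only arrays lay at least 1 log2 above the depleted mean, and above both depleted arrays, numbered 49 (0.349% of 14027). Those on which both lay at least 1 log2 below numbered 115 (0.82%). Many more differed on replicate 1 alone: 85 were higher (0.606%) and 411 were lower (2.93%), with replicate 2 less than 0.5 log2 from the depleted mean on that side. Replicate 2 alone was higher for 143 genes (1.02%) and lower for 62 (0.442%). A further 37 genes (0.264%) lay at least 1 log2 from the depleted mean in opposite directions. The largest class, lower on replicate 1 alone, was thus 3.57 times the size of the class lower on both arrays. For 356 of its 411 genes replicate 1 was the lowest of all 8 arrays, as it was for 14.5% of all genes. At the edge of the classes, Msx2 was inside with differences of 1.015 and 1.281 on replicates 1 and 2, and Prag1 was just outside with 1.401 and 0.996. On the lower side Tex26 was inside with -1.065 and -1.001, and Gpr149 outside with -0.989 and -1.002. Set against depleted replicate 2 alone the class higher on both arrays held 32 genes, and against depleted replicate 1 alone 88.

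**Figure D2:**
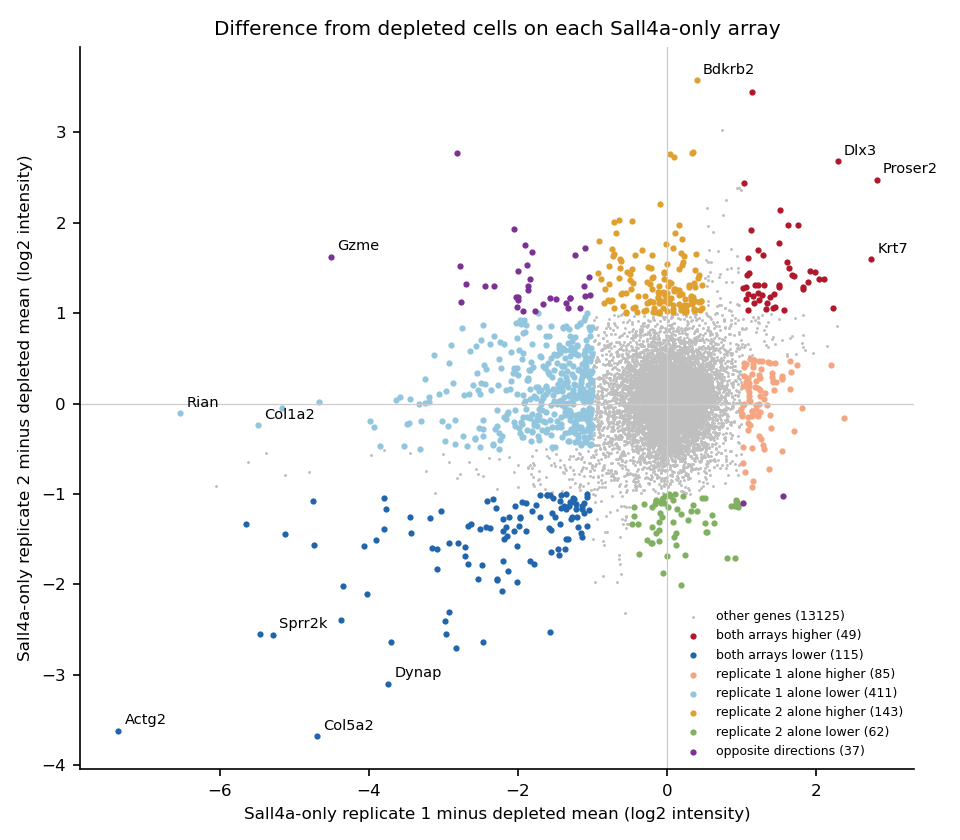
Each point is 1 of 14027 genes, placed by the difference from the depleted mean (log2 intensity) on Sall4a-only replicate 1 (horizontal) and replicate 2 (vertical), with colours for the 7 classes. The 411 genes lower on replicate 1 alone form the band reaching left along the zero line, ending at Rian, while Actg2, Col5a2 and Dynap lie low on both arrays.

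The 49 genes higher on both arrays had mean differences between 1.06 and 2.65 log2, and the 2 largest were those of Proser2 and of the homeobox gene Dlx3. Dlx3, which the mouse placenta needs to form its labyrinth, stood at 10.59 and 10.98 in Sall4a-only cells, against 8.08 and 8.51 in depleted cells. Both Sall4a-only arrays lay over 2 log2 above both depleted arrays, a difference of 2.49 (SE 0.21, adjusted p = 0.0624). Proser2 stood at 8.39 and 8.05 in Sall4a-only cells, against 5.30 and 5.85 in depleted cells, a difference of 2.65 (SE 0.24, adjusted p = 0.0671), also without overlap. Dlx3 and Proser2 passed the threshold when the kept probe sets of a gene were averaged (adjusted p = 0.0472 for each) and with a trended, robust prior (adjusted p = 0.0366 and 0.0406). Over all 16 alternatives their adjusted p ranged from 0.0164 to 0.449 and from 0.0164 to 0.47. In Sall4b-only cells Dlx3 read 9.68 and 9.70 and Proser2 7.41 and 7.29, between the other groups for both genes.

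Regulators of the trophoblast were mixed. Of 16 measured regulators, 6 were higher and 1 was lower at an unadjusted p under 0.05 (4.43% and 3.38% of all genes), and none passed after adjustment. The class higher on both arrays, which held 0.349% of all genes, included 3 of them (Dlx3, Esx1 and Msx2). Msx2 was at the edge of that class, with a difference of 1.015 on replicate 1. Esx1, an X-linked homeobox gene of the placenta, stood at 8.90 and 8.89 in Sall4a-only cells, against 7.64 and 7.71 in depleted cells. The replicates of these 2 groups differed by under 0.1 log2, and Sall4a-only minus depleted was 1.22 (SE 0.17, adjusted p = 0.209). Msx2, a homeobox gene that bone morphogenetic proteins switch on, stood at 10.65 and 10.92 in Sall4a-only cells, against 9.20 and 10.07 in depleted cells. Cdx2, which specifies the trophectoderm, stood at 9.44 and 9.99 in Sall4a-only cells, against 8.29 and 8.69 in depleted cells, a difference of 1.23 (SE 0.36, adjusted p = 0.492) with no overlap. Hand1, which drives the formation of trophoblast giant cells, stood at 9.63 and 11.00 in Sall4a-only cells, against 8.64 and 8.64 in depleted cells. Its difference was 1.68 (SE 0.42, adjusted p = 0.431), with replicate 2 further up than replicate 1. The sixth was Tead4, a partner of the Hippo coactivators in the trophectoderm, at 7.95 and 7.34 in Sall4a-only cells, against 7.10 and 7.18 in depleted cells. Against these, Gata3 stood at 8.04 and 9.02 in Sall4a-only cells, against 9.39 and 9.85 in depleted cells, lower on both Sall4a-only arrays, and Eomes at 8.06 and 7.88 in Sall4a-only cells, against 7.95 and 8.29 in depleted cells, where the groups overlapped. The median of the list was 0.17 log2 (0.30 on replicate 1 and 0.20 on replicate 2), against 0.03 over all genes.

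Genes of simple epithelia were mostly higher, and to a similar extent on both Sall4a-only arrays. Of 29 measured keratin, junction and epithelial genes, 24 were higher and 5 lower in Sall4a-only cells, and 10 were higher with none lower at an unadjusted p under 0.05, against 57.6% higher by sign and 4.43% at that p over all genes. Their median difference was 0.37 log2, with 0.40 on replicate 1 and 0.43 on replicate 2. None passed after adjustment, and 4 of the 29 (Krt7, Cldn4, Cldn7 and Ap1m2) were in the class higher on both arrays, which held 0.349% of all genes. Krt7, a keratin of simple epithelia and trophoblast, stood at 13.15 and 12.01 in Sall4a-only cells, against 10.09 and 10.73 in depleted cells, with replicate 1 the highest of the 8 arrays. Its difference was 2.17 (SE 0.43, adjusted p = 0.327), a 4.5-fold higher intensity. With replicate 1 as the lone Sall4a-only array, its adjusted p was 0.0347, and over all 16 alternatives it ranged from 0.0347 to 1. The tight junction protein Cldn7 stood at 12.25 and 11.69 in Sall4a-only cells, against 9.84 and 10.86 in depleted cells, and its relative Cldn4 at 9.96 and 10.10 in Sall4a-only cells, against 8.36 and 9.20 in depleted cells. Ap1m2, a subunit of the adaptor that sorts proteins to the basolateral side of epithelial cells, stood at 9.15 and 8.86 in Sall4a-only cells, against 7.64 and 7.99 in depleted cells. The values of depleted replicate 2 were above those of depleted replicate 1 for all 4 genes, by 0.36 to 1.02 log2, and still below both Sall4a-only arrays. The abundant keratin Krt8 stood at 14.29 and 14.21 in Sall4a-only cells, against 12.87 and 13.68 in depleted cells, also without overlap. The epithelial adhesion genes Cdh1 and Epcam differed by 0.25 (SE 0.15, adjusted p = 0.789) and 0.23 (SE 0.26, adjusted p = 0.938).

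Other genes of polarised or stratified epithelia were among the 49; they were picked after their values were seen. Crb3, which marks out the apical membrane, stood at 10.32 and 10.10 in Sall4a-only cells, against 8.66 and 9.12 in depleted cells. Marveld3, a tight junction protein, stood at 9.97 and 8.80 in Sall4a-only cells, against 7.03 and 8.47 in depleted cells, and Cldn23 at 7.67 and 7.37 in Sall4a-only cells, against 5.54 and 6.37 in depleted cells. The membrane protease Prss8 stood at 9.51 and 8.78 in Sall4a-only cells, against 7.01 and 7.79 in depleted cells. Podxl and Prom1, proteins of the apical surface, stood at 12.15 and 12.42 in Sall4a-only cells, against 10.57 and 10.71 in depleted cells, and at 10.92 and 11.55 in Sall4a-only cells, against 8.94 and 9.87 in depleted cells. Among 18 measured genes of stratified, squamous epithelia, Krt16, Ppl and Sfn were higher on both arrays, while Krt6a and Dynap were lower on both. These classes held 0.349% and 0.82% of all genes. Sfn, the 14-3-3 protein of stratified epithelium, stood at 12.30 and 12.43 in Sall4a-only cells, against 10.84 and 11.58 in depleted cells, and the desmosomal protein Ppl at 7.91 and 8.44 in Sall4a-only cells, against 6.46 and 7.19 in depleted cells.

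**Figure D3:**
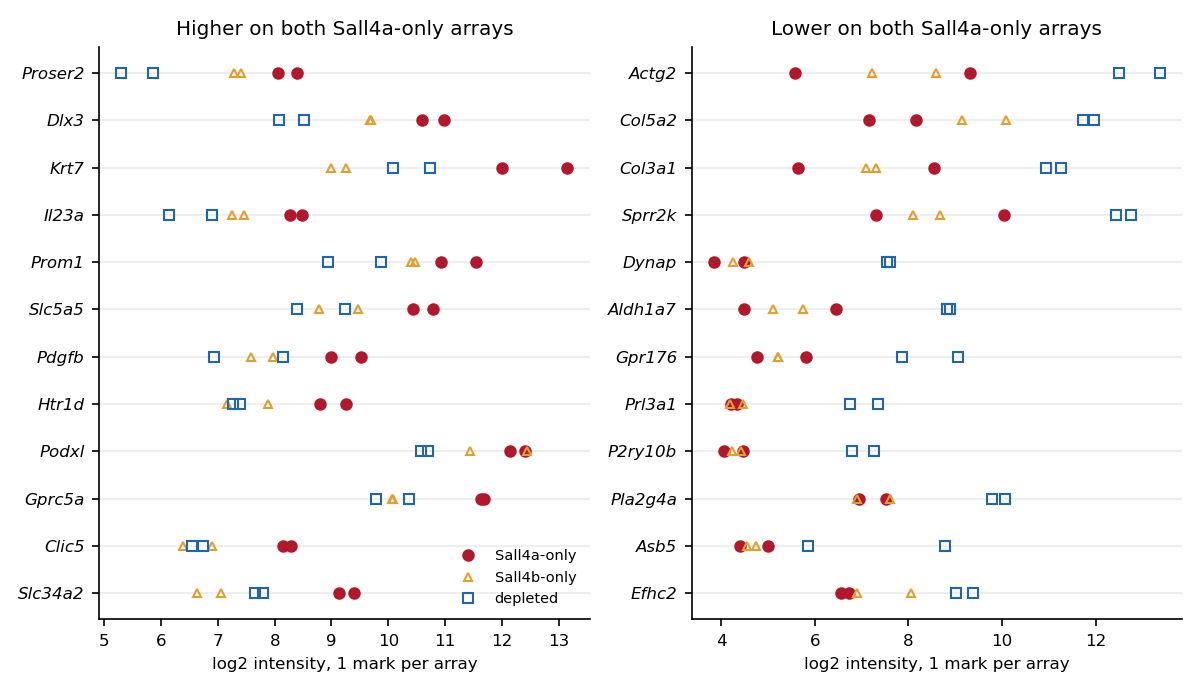
Log2 intensity on each Sall4a-only (filled circles), Sall4b-only (open triangles) and depleted (open squares) array for the 12 genes furthest above (left) and below (right) depleted cells by the smaller of the 2 array differences. In every row both filled circles lie on the same side of both squares, and in the right panel the triangles also lie left of both squares.

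Several secreted ligands were among the 49. Bmp4, a ligand of the bone morphogenetic protein pathway, stood at 10.81 and 11.15 in Sall4a-only cells, against 8.93 and 10.10 in depleted cells. Its difference was 1.47 (SE 0.39, adjusted p = 0.445), and Sall4b-only cells, at 10.76 and 11.09, had the same level as Sall4a-only cells within 0.1 log2. Wnt7b, which placental development requires, stood at 8.67 and 8.13 in Sall4a-only cells, against 6.62 and 7.07 in depleted cells and was called present on both Sall4a-only arrays and on neither depleted array. Pdgfb, a growth factor for stromal and mural cells, stood at 9.52 and 8.99 in Sall4a-only cells, against 6.92 and 8.14 in depleted cells. Fgf17 stood at 8.37 and 7.98 in Sall4a-only cells, against 7.20 and 6.63 in depleted cells, and the guidance factor Ntn1 at 9.54 and 8.98 in Sall4a-only cells, against 7.54 and 7.88 in depleted cells. The cytokine subunit Il23a stood at 8.28 and 8.49 in Sall4a-only cells, against 6.14 and 6.89 in depleted cells and the chemokine Cxcl10 at 9.80 and 11.20 in Sall4a-only cells, against 8.63 and 8.89 in depleted cells. Of 21 measured genes of the bone morphogenetic protein pathway, 3 were higher and 0 lower at an unadjusted p under 0.05 (4.43% and 3.38% of all genes), with a median of 0.10 log2. These were Bmp4, Msx2 and Bmp7, a related ligand, at 6.55 and 7.68 in Sall4a-only cells, against 6.01 and 5.95 in depleted cells. Carriers and receptors of the class included the iodide carrier Slc5a5, at 10.44 and 10.79 in Sall4a-only cells, against 8.39 and 9.23 in depleted cells, the phosphate carrier Slc34a2, at 9.40 and 9.14 in Sall4a-only cells, against 7.65 and 7.79 in depleted cells, and the serotonin receptor Htr1d, at 9.25 and 8.80 in Sall4a-only cells, against 7.39 and 7.27 in depleted cells.

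H2-Bl, a class I histocompatibility gene, had close replicates in every group. It stood at 8.68 and 8.77 in Sall4a-only cells, against 7.49 and 7.44 in depleted cells, and at 7.53 and 7.41 in Sall4b-only and 7.99 and 7.99 in control cells. Both Sall4a-only arrays were above the other 6, and the difference from depleted cells was 1.26 (SE 0.11, adjusted p = 0.0624), or 2.4-fold. The threshold was passed when probe sets were averaged (adjusted p = 0.0472, 0.0188 to 0.593 over 16 alternatives). The class I heavy chains H2-K1 and H2-D1 were also higher on both arrays, mainly on replicate 1: H2-K1 stood at 12.15 and 11.21 in Sall4a-only cells, against 10.36 and 10.57 in depleted cells and H2-D1 at 11.84 and 11.01 in Sall4a-only cells, against 10.74 and 10.81 in depleted cells. Their light chain B2m stood at 13.32 and 13.56 in Sall4a-only cells, against 13.64 and 13.63 in depleted cells, where the Sall4a-only arrays were lower. Class I genes are close copies of each other, so probes of an array can read more than 1 of them. Of 12 measured genes of antigen presentation, 10 were higher in Sall4a-only cells, and 3 (H2-Bl, H2-K1 and the peptide transporter subunit Tap2) had an unadjusted p under 0.05. Over all genes 57.6% were higher by sign, and 4.43% higher at that p. The list's median was 0.28 log2.

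Among the 115 genes lower on both arrays, mean differences lay between -5.49 and -1.03 log2. The 4 largest were those of Actg2, Col5a2, Col3a1 and Sprr2k, genes with different roles. Sall4b-only cells were low for this class too. Median differences from the depleted mean were -1.65 and -1.17 on the Sall4b-only arrays, against -2.04 and -1.37 on the Sall4a-only arrays. Sall4b-only minus depleted was -5.03 for Actg2, -2.24 for Col5a2, -3.90 for Col3a1 and -4.21 for Sprr2k. For 35 of the 115 genes both Sall4a-only arrays lay below both Sall4b-only arrays, and for 5 above. Membership already required low Sall4a-only values, and the share over all genes was not counted. These counts are therefore a description and no result on the isoforms. The class held 2 of 16 measured collagens and 1 of 19 contractile genes, against 0.82% of all genes, and the median of the contractile list was 0.09 log2 on replicate 2. Actg2, the gamma actin of smooth muscle, stood at 5.58 and 9.32 in Sall4a-only cells, against 13.37 and 12.50 in depleted cells, a difference of -5.49 (SE 1.23, adjusted p = 0.377). The Sall4a-only arrays lay 3.74 log2 apart and were still both more than 3 log2 below each depleted array. The fibrillar collagen gene Col5a2 stood at 7.16 and 8.17 in Sall4a-only cells, against 11.96 and 11.74 in depleted cells, a difference of -4.19 (SE 0.42, adjusted p = 0.0921) and 18.2-fold lower intensity. Col5a2 passed with a trended, robust prior (adjusted p = 0.0406), with 0.0114 to 0.777 over 16 alternatives, the lowest from replicate 1 as the lone Sall4a-only array. Col3a1, which forms fibrils with it, stood at 5.64 and 8.55 in Sall4a-only cells, against 11.27 and 10.94 in depleted cells. Lox, the enzyme that cross-links collagen, stood at 6.95 and 10.62 in Sall4a-only cells, against 12.09 and 11.30 in depleted cells, and the matrix glycoprotein Tnc at 5.91 and 9.07 in Sall4a-only cells, against 10.96 and 10.32 in depleted cells. In Lox and Tnc replicate 1 carried most of the difference. Tgfbi, a matrix protein that transforming growth factor beta induces, was lower on both arrays to nearly the same extent: it stood at 9.13 and 9.59 in Sall4a-only cells, against 11.18 and 11.47 in depleted cells, a difference of -1.97 (SE 0.31, adjusted p = 0.239). Igfbp7, a secreted binding protein, stood at 8.52 and 10.07 in Sall4a-only cells, against 11.86 and 11.48 in depleted cells. The matrix proteases Mmp10 and Mmp12 stood at 5.95 and 7.28 in Sall4a-only cells, against 8.36 and 8.37 in depleted cells, and at 4.91 and 5.11 in Sall4a-only cells, against 6.27 and 6.12 in depleted cells. Mmp12 was called present on neither Sall4a-only array.

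Several genes were present in depleted cells and near background on both Sall4a-only arrays. Dynap, on chromosome 18, had the smallest p of all genes and stood at 3.85 and 4.49 in Sall4a-only cells, against 7.55 and 7.62 in depleted cells. It was called present on neither Sall4a-only array, at least 10.7-fold lower, with a difference of -3.42 (SE 0.23, adjusted p = 0.0564). It passed when probe sets were averaged (adjusted p = 0.0372) and with the trended, robust prior (adjusted p = 0.0235), with 0.00434 to 0.449 over 16 alternatives. Control cells had 7.11 and 7.10 and Sall4b-only cells 4.59 and 4.26, so the cells with a single isoform lay apart from the depleted and control cells. Prl3a1, a hormone gene of the prolactin family that the placenta makes, stood at 4.22 and 4.34 in Sall4a-only cells, against 7.36 and 6.74 in depleted cells, at least 6.82-fold lower (adjusted p = 0.0671). The X-linked receptor gene P2ry10b stood at 4.06 and 4.47 in Sall4a-only cells, against 7.26 and 6.79 in depleted cells, at least 6.76-fold lower (adjusted p = 0.0624). Prr32 stood at 3.96 and 4.28 in Sall4a-only cells, against 6.37 and 6.10 in depleted cells, at least 4.33-fold lower (adjusted p = 0.0921). Control cells had 4.74 and 4.27 for Prl3a1, 4.48 and 4.47 for P2ry10b and 4.29 and 4.15 for Prr32, levels like those of Sall4a-only cells. For these 3 genes the depleted arrays were the highest of all 8. With a trended, robust prior all 3 passed (adjusted p = 0.0366 for Prl3a1, 0.0248 for P2ry10b and 0.0422 for Prr32), and the highest adjusted p over the alternatives was 0.449, 0.449 and 0.777. The same order held for Tnfrsf11b, the decoy receptor osteoprotegerin, at 3.76 and 3.80 in Sall4a-only cells, against 7.02 and 4.52 in depleted cells, and for Vcam1, an adhesion molecule of vessels and stroma, at 4.04 and 5.36 in Sall4a-only cells, against 7.07 and 6.36 in depleted cells. Vcam1 was called present on 1 Sall4a-only array, so it was not near background on both. For Tnfrsf11b most of the difference came from depleted replicate 1, and the adjusted p was 0.0387 with replicate 1 as the lone depleted array.

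Genes of the primitive endoderm, the blastocyst layer that gives the yolk sac, were mostly lower. Of 26 measured, 22 were lower and 4 higher in Sall4a-only cells, 6 lower and 0 higher at an unadjusted p under 0.05, and none passed after adjustment. Over all genes 42.4% were lower by sign, and 3.38% lower at that p. The 6 were Hnf4a, Dab2, Lrp2, Thbd, Fst and Srgn. The list's median difference was -0.40 log2, with -0.61 on replicate 1 and -0.28 on replicate 2, against 0.03 for all genes. It is not made up of endoderm genes alone: Col4a1 and Col4a2 are in the collagen list too, and Sparc in the stromal or feeder list. The 6 primitive endoderm markers summed above are members of this list, so their lower sum is no separate observation. The part of such cells was not tested. Hnf4a, a nuclear receptor of visceral endoderm and liver, stood at 6.07 and 6.71 in Sall4a-only cells, against 8.01 and 8.12 in depleted cells, and its difference was -1.67 (SE 0.24, adjusted p = 0.209). Sall4b-only cells had 8.39 and 8.21 for Hnf4a and control cells 7.63 and 8.01, all above both Sall4a-only arrays. Sox17, an endoderm regulator, stood at 8.14 and 8.03 in Sall4a-only cells, against 9.06 and 9.43 in depleted cells. The granule proteoglycan Srgn stood at 9.73 and 10.38 in Sall4a-only cells, against 11.76 and 11.82 in depleted cells, and the thrombin receptor Thbd at 7.45 and 8.74 in Sall4a-only cells, against 10.61 and 9.55 in depleted cells. Hnf4a, Sox17, Srgn and Thbd made 4 of 26 in the class lower on both arrays, which held 0.82% of all genes. The early endoderm regulators Gata4 and Gata6 stood at 9.32 and 8.85 in Sall4a-only cells, against 9.35 and 9.37 in depleted cells, and at 7.40 and 8.31 in Sall4a-only cells, against 8.77 and 8.49 in depleted cells, where Gata6 was lower on replicate 1 alone.

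Further groups among the 115 were seen after their values were known. The retinaldehyde dehydrogenase gene Aldh1a1 and its near copy Aldh1a7 stood at 4.78 and 5.80 in Sall4a-only cells, against 7.56 and 7.42 in depleted cells, and at 4.49 and 6.46 in Sall4a-only cells, against 8.89 and 8.82 in depleted cells. As close copies they may share probes. The alcohol dehydrogenases Adh1 and Adh4 and the aldo-keto reductases Akr1c14, Akr1c18 and Akr1cl were in the same class. Akr1c18, which breaks down progesterone, stood at 7.14 and 7.42 in Sall4a-only cells, against 9.61 and 8.95 in depleted cells. The phospholipase Pla2g4a, which frees arachidonic acid, stood at 6.94 and 7.52 in Sall4a-only cells, against 10.06 and 9.79 in depleted cells. Its replicates lay close in both groups, and its difference was -2.70 (SE 0.29, adjusted p = 0.101). Ligands in the class were Wnt5a, at 6.91 and 8.17 in Sall4a-only cells, against 10.03 and 9.97 in depleted cells, Csf1, at 7.46 and 9.37 in Sall4a-only cells, against 10.50 and 10.77 in depleted cells, and Tgfb3, at 6.03 and 8.64 in Sall4a-only cells, against 10.77 and 8.84 in depleted cells. Asz1, Sohlh2, Rhox13, Nlrp14, Nlrp4c and Nlrp4f, genes of the germ line, were also in the class, although of the 22 measured genes of the germ cell list only Asz1 was, and that list's median was 0.21 log2 on replicate 1 and -0.62 on replicate 2. The class held 0.82% of all genes. Rhox13, an X-linked homeobox gene of germ cells, stood at 9.61 and 9.74 in Sall4a-only cells, against 11.81 and 11.83 in depleted cells. The replicates of these 2 groups lay within 0.15 log2, and Sall4a-only minus depleted was -2.14 (SE 0.37, adjusted p = 0.26). Sall4b-only cells had 10.26 and 11.51, a spread that the SE of the 4-group model includes.

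Promoter windows from RefSeq (build GRCm38.p6) ran from 250 bases before to 50 bases after a gene's start and were found by symbol for 11286 of the 14027 genes. They covered 29 of the 49 genes higher on both arrays and 86 of the 115 lower on both. Of several motifs looked at first, 3 are given, searched on both strands: the TATA box (TATAAA), the GC box (GGGCGG) and the CCAAT box (CCAAT). The TATA box was in 0 of 29 windows of the genes higher on both arrays (0.0%), in 25 of 86 of those lower on both (29.1%), in 16.2% of those lower on replicate 1 alone, and in 9.5% of all measured genes. The GC box was in 72.4% of the first class, 36.0% of the second and 64.0% of the third, against 66.0% of measured genes. The CCAAT box was in 48.3%, 37.2% and 38.6%, against 42.8%. The differences between these shares were not tested, and genes without a window are not counted in them. Over all 27025 symbols with a window, measured or not, the shares were 15.7% for TATA, 38.2% for GC and 41.1% for CCAAT. A match is a run of letters and not a site shown to work. Windows follow for an example of each kind: Krt7 (chr15:101412153-101412452, plus strand) and Cldn4 (chr5:134946885-134947184, minus strand) of the first class, with the GC box in capitals on either strand, and Prl3a1 (chr13:27259239-27259538, plus strand), Sprr2k (chr3:92432332-92432631, plus strand) and Mmp10 (chr9:7502092-7502391, plus strand) of the second, with the TATA box in capitals. All read 5′ to 3′ on the gene's strand. In each of the last 3 windows the TATA box began 29 bases before the start.
Krt7: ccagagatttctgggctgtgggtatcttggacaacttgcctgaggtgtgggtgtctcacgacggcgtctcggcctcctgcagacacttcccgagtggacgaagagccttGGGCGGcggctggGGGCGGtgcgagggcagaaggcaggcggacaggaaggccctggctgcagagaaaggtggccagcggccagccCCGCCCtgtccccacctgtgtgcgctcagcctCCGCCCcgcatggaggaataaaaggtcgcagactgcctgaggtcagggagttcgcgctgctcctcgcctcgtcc
Cldn4: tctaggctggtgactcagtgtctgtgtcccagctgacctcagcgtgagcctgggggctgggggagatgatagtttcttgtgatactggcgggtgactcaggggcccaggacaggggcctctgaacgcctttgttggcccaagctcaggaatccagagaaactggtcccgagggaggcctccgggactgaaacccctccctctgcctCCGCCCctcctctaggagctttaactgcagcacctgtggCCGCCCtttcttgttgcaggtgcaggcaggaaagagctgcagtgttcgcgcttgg
Prl3a1: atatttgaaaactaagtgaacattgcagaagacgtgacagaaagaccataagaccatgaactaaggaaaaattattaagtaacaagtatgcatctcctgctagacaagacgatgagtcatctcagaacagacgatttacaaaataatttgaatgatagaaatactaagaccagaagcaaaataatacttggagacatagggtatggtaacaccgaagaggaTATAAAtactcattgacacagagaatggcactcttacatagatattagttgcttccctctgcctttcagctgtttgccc
Sprr2k: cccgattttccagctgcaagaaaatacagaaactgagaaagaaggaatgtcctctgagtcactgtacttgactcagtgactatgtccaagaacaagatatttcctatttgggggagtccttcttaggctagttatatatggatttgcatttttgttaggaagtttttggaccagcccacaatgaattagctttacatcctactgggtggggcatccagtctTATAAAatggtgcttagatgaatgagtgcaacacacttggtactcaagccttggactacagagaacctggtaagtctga
Mmp10: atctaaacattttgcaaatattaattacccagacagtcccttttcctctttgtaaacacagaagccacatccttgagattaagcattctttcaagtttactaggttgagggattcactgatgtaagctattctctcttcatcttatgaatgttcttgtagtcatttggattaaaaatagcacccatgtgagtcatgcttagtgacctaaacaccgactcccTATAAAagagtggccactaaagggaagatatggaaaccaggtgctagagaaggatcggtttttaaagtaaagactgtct

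Sprr2k, a cornified envelope gene whose window is shown above, stood at 7.32 and 10.05 in Sall4a-only cells, against 12.77 and 12.44 in depleted cells, a difference of -3.92 (SE 0.80, adjusted p = 0.337). Krt7 and Cldn4 had the opposite direction on both arrays, as given with the epithelial genes.

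The genes lower on replicate 1 alone included many stromal and matrix genes. Of 35 measured stromal or feeder genes, 34 were lower in Sall4a-only cells, 15 of them on replicate 1 alone and 6 on both arrays, against 42.4%, 2.93% and 0.82% of all genes. The list's median was -1.48 log2 on replicate 1 and -0.10 on replicate 2. For 16 measured collagens the medians were -1.65 and -0.18, with 7 lower on replicate 1 alone. Col1a2, a chain of type I collagen, stood at 7.02 and 12.27 in Sall4a-only cells, against 12.64 and 12.37 in depleted cells, and its partner Col1a1 at 10.06 and 13.16 in Sall4a-only cells, against 13.38 and 13.33 in depleted cells. On replicate 2 both were within 0.4 log2 of the depleted mean. The aggrecan-cleaving protease Adamts5 stood at 5.13 and 10.24 in Sall4a-only cells, against 10.50 and 10.09 in depleted cells, the receptor kinase Axl at 7.98 and 11.65 in Sall4a-only cells, against 11.79 and 11.45 in depleted cells, and the homing chemokine Cxcl12 at 6.73 and 9.55 in Sall4a-only cells, against 10.61 and 9.48 in depleted cells. The fit counts the distance between the Sall4a-only replicates as error, and adjusted p was 0.754 for Col1a2 and 0.774 for Adamts5. With replicate 1 as the lone Sall4a-only array, and the spread of the other groups, it was 0.0111 and 0.00485, and under every other of the 16 alternatives it was above 0.05, up to 1. Sall4b-only cells lay between: they had 10.19 and 11.20 for Col1a2 and 8.10 and 8.75 for Adamts5. The matrix proteases and their inhibitors had medians of -1.29 on replicate 1 and 0.10 on replicate 2, and contractile genes -0.62 and 0.09. The summed intensity of the 8 measured stromal or feeder markers was low on this array, at 2409 against 18727 on replicate 2. Of these 8, 6 were called present on replicate 1 and 7 on replicate 2. Col1a1 and Col1a2 are among them, so the sum is no separate observation. The part of such cells in these genes was not tested.

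Of all genes, Rian had the widest distance between the Sall4a-only replicates. Rian, an imprinted non-coding RNA of the Dlk1-Meg3 region of chromosome 12 that is expressed from the maternal copy, stood at 6.44 and 12.87 in Sall4a-only cells, against 13.02 and 12.93 in depleted cells. Replicate 1 was 6.43 log2 below replicate 2, which was within 0.2 log2 of both depleted arrays. Sall4b-only cells had 12.50 and 12.16 and control cells 12.44 and 12.51, so 7 of the 8 arrays were within 0.9 log2 of each other. Adjusted p was 0.768, and 0.00123 with replicate 1 as the lone Sall4a-only array and the spread of the other groups (0.00123 to 1 over 16 alternatives). Other maternally expressed RNAs of the region had a similar gap: Meg3 stood at 6.18 and 11.14 in Sall4a-only cells, against 11.64 and 11.95 in depleted cells, and Mirg at 4.68 and 9.82 in Sall4a-only cells, against 10.57 and 10.89 in depleted cells. Both missed the class because replicate 2 was also somewhat lower than depleted cells. Dlk1, the paternally expressed gene of the region, stood at 9.42 and 9.04 in Sall4a-only cells, against 8.56 and 8.52 in depleted cells, higher on both Sall4a-only arrays. Of 24 measured imprinted genes, 6 were lower on replicate 1 alone, 1 (Grb10) was higher there, and 0 were in the classes of both arrays. Over all genes 2.93% were lower and 0.606% higher on replicate 1 alone, and 0.349% were higher and 0.82% lower on both arrays. The paternally expressed Mest stood at 10.08 and 12.25 in Sall4a-only cells, against 12.71 and 12.58 in depleted cells, Sgce at 9.73 and 11.52 in Sall4a-only cells, against 10.59 and 11.04 in depleted cells and Peg3 at 11.96 and 12.80 in Sall4a-only cells, against 12.92 and 13.26 in depleted cells. On the other side, Igf2 stood at 10.85 and 11.55 in Sall4a-only cells, against 9.87 and 10.44 in depleted cells, higher on both Sall4a-only arrays. The medians of the list were -0.68 on replicate 1 and -0.02 on replicate 2.

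**Figure D4:**
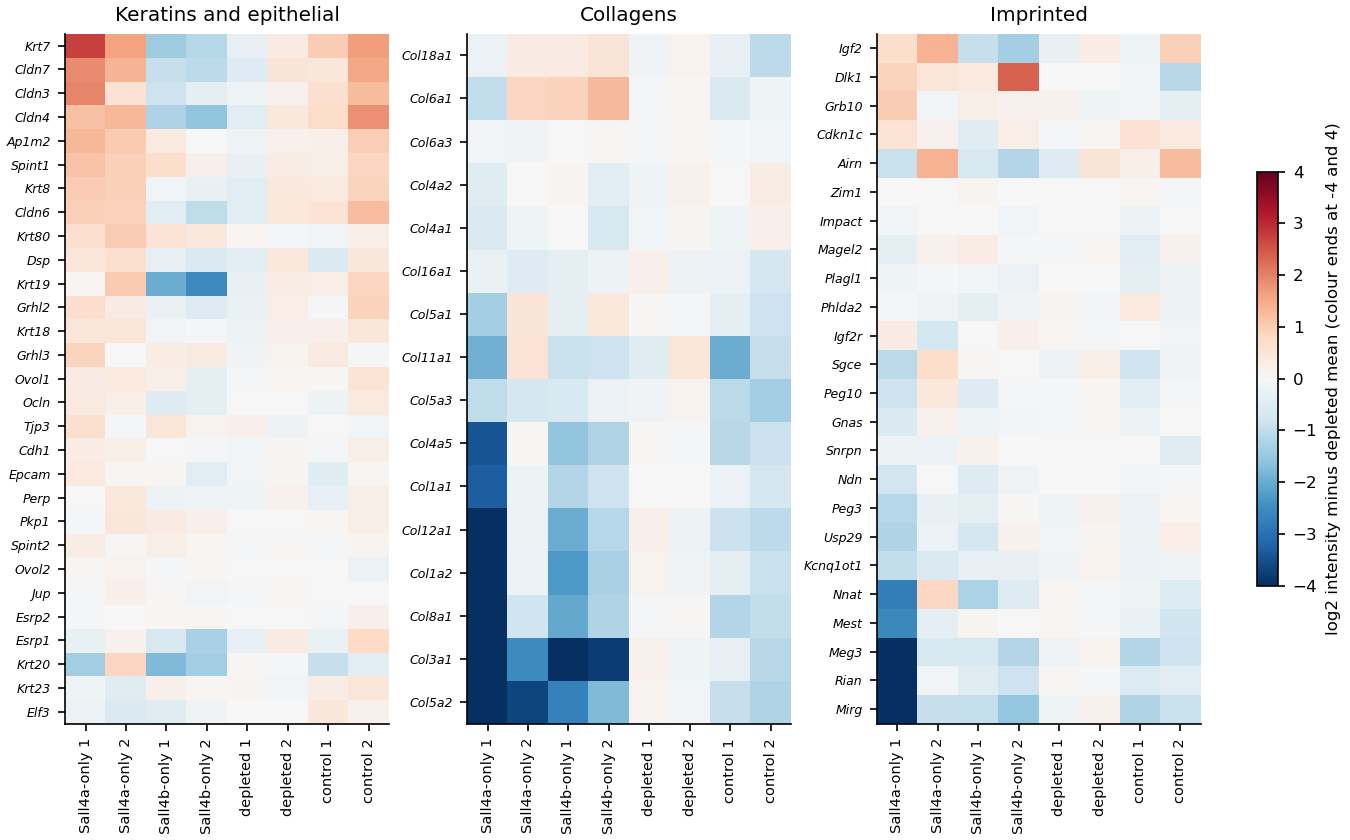
Log2 intensity minus the depleted mean for each measured gene (rows) of 3 lists on each of the 8 arrays (columns, Sall4a-only at the left), with colours ending at -4 and 4. Krt7, Cldn7 and Cldn4 are red on both Sall4a-only arrays, Col5a2 and Col3a1 blue on both, and Meg3, Rian and Mirg dark blue on Sall4a-only replicate 1 alone.

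A list drawn up for the 2-cell embryo and for rare ES cells that resemble it also separated the replicates. It is not made up of 2-cell genes alone: Zfp42, for example, is in the pluripotency list too. The medians of 10 measured genes were -1.32 log2 on replicate 1 and 0.57 on replicate 2. Pramel6 stood at 8.15 and 11.41 in Sall4a-only cells, against 11.51 and 11.17 in depleted cells, Pramel7 at 6.70 and 10.07 in Sall4a-only cells, against 9.80 and 9.45 in depleted cells and Usp17la at 9.36 and 12.24 in Sall4a-only cells, against 11.82 and 11.81 in depleted cells, each lower on replicate 1 alone. Zfp352 stood at 5.42 and 7.64 in Sall4a-only cells, against 6.43 and 6.74 in depleted cells, lower on replicate 1 and higher on replicate 2. None of the 10 had an unadjusted p under 0.05. Granzyme genes, proteases of cytotoxic granules, lay on opposite sides of depleted cells: Gzme stood at 4.61 and 10.75 in Sall4a-only cells, against 8.78 and 9.47 in depleted cells, and Gzmd at 3.66 and 9.25 in Sall4a-only cells, against 6.10 and 6.86 in depleted cells. Gzme was thus 6.14 log2 apart between Sall4a-only replicates, with the depleted arrays between them. Of 10 genes of the granzyme, Ctla2 and Serpinb9 families, whose medians were -0.93 and 0.08, 2 had an unadjusted p under 0.05, both lower: Ctla2a and Serpinb9b, at 11.93 and 12.58 in Sall4a-only cells, against 12.85 and 12.98 in depleted cells. Over all genes 3.38% were lower at that p.

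Genes higher on replicate 1 alone were fewer than those lower, 85 against 411, with a median of 1.20 log2 on that array. Myl4, a myosin light chain of the atrium, stood at 11.15 and 9.38 in Sall4a-only cells, against 8.70 and 9.20 in depleted cells, the lipoxygenase Alox12 at 9.04 and 7.17 in Sall4a-only cells, against 7.27 and 7.18 in depleted cells and the myeloid and liver regulator Cebpa at 10.73 and 9.46 in Sall4a-only cells, against 9.34 and 9.04 in depleted cells. Replicate 2 alone was higher for Bdkrb2, a bradykinin receptor, at 7.06 and 10.24 in Sall4a-only cells, against 6.53 and 6.79 in depleted cells, and for Bmp2, a ligand related to Bmp4, at 8.80 and 11.43 in Sall4a-only cells, against 8.28 and 9.13 in depleted cells. Sall4b-only cells had 8.41 and 8.49 for Bdkrb2 and 10.80 and 11.23 for Bmp2, above both depleted arrays. Replicate 2 alone was lower for Otx2, a regulator of the primed epiblast and forebrain, at 10.64 and 8.96 in Sall4a-only cells, against 10.80 and 10.49 in depleted cells, and for the forkhead gene Foxd1, at 8.48 and 6.28 in Sall4a-only cells, against 8.29 and 8.28 in depleted cells. Of the germ cell list, Piwil2, which works with small RNAs to silence transposons, stood at 12.43 and 11.19 in Sall4a-only cells, against 11.82 and 11.81 in depleted cells, higher on replicate 1 and lower on replicate 2. Dazl, Asz1 and Tex101 of that list were lower at an unadjusted p under 0.05, with differences of -0.81, -2.14 and -0.70. That is 3 of its 22 measured genes, against 3.38% of all genes lower at that p.

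The core ES cell regulators differed by less than the distance between the Sall4a-only replicates. Pou5f1 stood at 13.50 and 13.15 in Sall4a-only cells, against 13.31 and 13.25 in depleted cells, Nanog at 13.53 and 13.35 in Sall4a-only cells, against 13.34 and 13.34 in depleted cells and Sox2 at 12.85 and 12.19 in Sall4a-only cells, against 12.52 and 12.66 in depleted cells. Their differences were 0.05 (SE 0.20, adjusted p = 0.997), 0.10 (SE 0.13, adjusted p = 0.952) and -0.07 (SE 0.22, adjusted p = 0.993). Klf4 stood at 12.80 and 11.81 in Sall4a-only cells, against 12.15 and 12.35 in depleted cells and Esrrb at 13.17 and 12.21 in Sall4a-only cells, against 12.60 and 12.54 in depleted cells, and in both genes the Sall4a-only arrays lay on either side of the depleted arrays. Of 32 measured pluripotency genes, 0 were higher and 0 lower at an unadjusted p under 0.05, with medians of 0.21 on replicate 1 and -0.23 on replicate 2. A p that misses the threshold does not show equal expression. The NuRD complex, to which Sall4 binds, had a median of 0.05 over 13 genes, and 19 Polycomb genes had -0.05, with no gene of either list at an unadjusted p under 0.05. The other Sall genes, Sall1, Sall2 and Sall3, differed by -0.10, 0.08 and -0.15. Fgf5 was close to background, at 5.39 and 5.86 in Sall4a-only cells, against 5.72 and 6.50 in depleted cells. Among the DNA methylation genes, Dnmt3l, the cofactor of the de novo methyltransferases, was lower on both Sall4a-only arrays, at 12.71 and 13.08 in Sall4a-only cells, against 13.38 and 13.59 in depleted cells (adjusted p = 0.445).

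**Figure D5:**
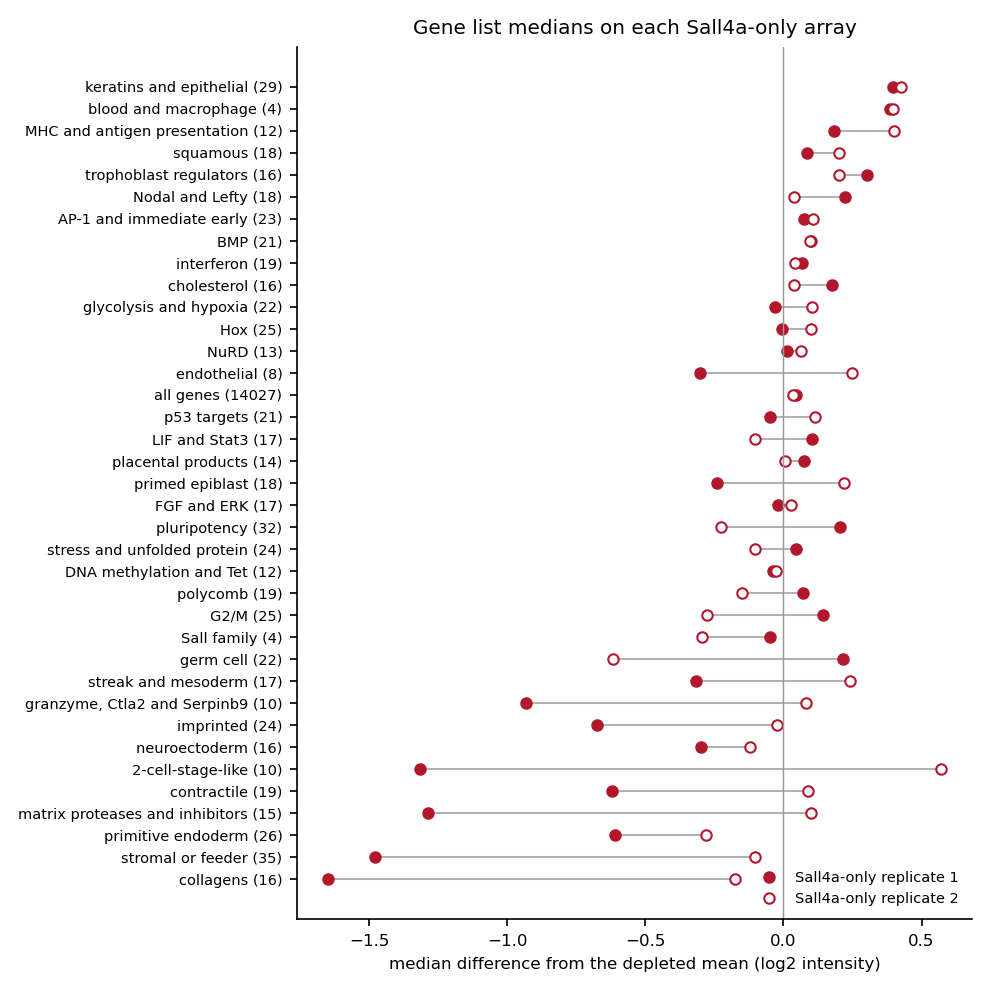
Median difference from the depleted mean (log2 intensity) of each gene list on Sall4a-only replicate 1 (filled) and replicate 2 (open), with the number of measured genes in brackets. Keratin and epithelial genes lie near 0.4 on both arrays, whereas collagens lie at -1.65 on replicate 1 and -0.18 on replicate 2.

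The remaining lists had medians between -0.23 and 0.35 log2, and members with an unadjusted p under 0.05 are named here because of it. Over all genes 4.43% were higher and 3.38% lower at that p, so a single member of such a list is near the background share. Of 14 placental product genes 3 were higher, the keratins Krt8 and Krt18 and the surface protein Plet1, and 2 were lower, Prl3a1 and Plac8. Of 18 Nodal and Lefty genes 1 was higher, Inhbb, which codes for an activin subunit, at 10.39 and 9.31 in Sall4a-only cells, against 8.59 and 8.53 in depleted cells. The activin inhibitor Fst was lower, at 10.18 and 10.23 in Sall4a-only cells, against 10.79 and 11.41 in depleted cells. Of 18 primed epiblast genes 2 were higher, Pou3f1, at 9.16 and 10.79 in Sall4a-only cells, against 8.49 and 8.77 in depleted cells, and Cldn6, at 13.15 and 13.12 in Sall4a-only cells, against 11.78 and 12.60 in depleted cells. In both pairs the groups did not overlap.

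Among lineage and signalling genes, 1 of 16 neuroectoderm genes was lower (Six3, -0.45 log2), and of 17 primitive streak and mesoderm genes Hand1 was higher and Tbx20 lower (-0.96). Of 25 Hox genes Hoxd10 was higher, at 8.34 and 8.02 in Sall4a-only cells, against 7.04 and 7.20 in depleted cells, and Hoxb13 lower (-0.59). Of 8 endothelial genes 2 were lower, the angiopoietin receptor Tek, at 9.86 and 9.26 in Sall4a-only cells, against 10.51 and 10.85 in depleted cells, and the adhesion molecule Pecam1, at 8.85 and 8.88 in Sall4a-only cells, against 9.92 and 9.37 in depleted cells. Of 17 genes of the LIF and Stat3 pathway, which keeps mouse ES cells undifferentiated, the kinase Pim1 was higher (0.31) and the receptor Lifr lower (-0.47). Of 23 immediate early genes Jund was higher (0.33), and of 17 genes of the FGF and ERK pathway none passed. Of 19 interferon genes Ifi35 (-0.74) and Ifitm1 (-0.46) were lower. Of 24 stress genes the amino acid response regulator Atf4 was higher, at 13.50 and 13.25 in Sall4a-only cells, against 13.01 and 12.85 in depleted cells, while Cth (-0.55) and Manf (-0.31) were lower. The p53 targets (21 genes), G2/M genes (25), glycolysis and hypoxia genes (22), cholesterol synthesis genes (16) and blood or macrophage genes (4) had no gene at an unadjusted p under 0.05. None of the genes in these lists passed after adjustment.

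Whether a difference belonged to Sall4a or came with either isoform was addressed by testing Sall4a-only against Sall4b-only cells. No gene passed an adjusted p of 0.05 (0%), and 431 were higher (3.07%) and 389 lower (2.77%) at an unadjusted p under 0.05. The differences of both isoforms from depleted cells share the depleted arrays, so they are set side by side and no overlap between them is given. H2-Bl had a difference of 1.26 (adjusted p = 0.101), Krt7 3.46 (adjusted p = 0.215) and Slc34a2 2.43 (adjusted p = 0.215), with Sall4b-only arrays of 8.98 and 9.25 for Krt7 and 6.63 and 7.05 for Slc34a2, below both depleted arrays. Esx1 differed by 1.32 (adjusted p = 0.219) and Cldn4 by 2.66 (adjusted p = 0.368), and Sall4b-only cells had 7.55 and 7.20 for Cldn4. The septin Septin4 stood at 11.28 and 11.09 in Sall4a-only, 8.22 and 8.39 in Sall4b-only and 9.67 and 9.87 in depleted cells, a difference between the isoforms of 2.88 (adjusted p = 0.215). On the lower side, Hnf4a differed by -1.91 (adjusted p = 0.215) and Col5a2 by -1.94 (adjusted p = 0.561). By contrast, Dynap differed by -0.26 (adjusted p = 0.948), Prl3a1 by -0.05 (adjusted p = 0.993), P2ry10b by -0.07 (adjusted p = 0.987) and Pla2g4a by -0.02 (adjusted p = 0.997). Cells with either isoform lay below both depleted arrays for these 4 genes, and no difference between the isoforms was detectable at this replicate spread. Bmp4 and Ntn1 were likewise close, with 0.05 (adjusted p = 0.995) and 0.05 (adjusted p = 0.995). The median of the epithelial list was 0.37 log2 for Sall4a-only minus depleted, -0.16 for Sall4b-only minus depleted, and 0.59 for Sall4a-only minus Sall4b-only.

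Set beside control cells, which kept both isoforms, the classes differed. For 32 of the 49 genes higher on both arrays, both Sall4a-only arrays were also above both control arrays, as they were for 17.8% of all genes. For 21 of the 49 they were the highest of all 8, against 3.32% of all genes. For 86 of the 115 genes lower on both arrays they were also below both control arrays (12.1% of all genes), and for 28 they were the lowest of all 8 (1.87% of all genes). Membership already required them to stand apart from the depleted arrays, so these shares are a description. Proser2 had 5.38 and 5.78 in control cells, like depleted cells, whereas Krt7 had 11.42 and 12.07 and Cldn7 10.79 and 11.90, overlapping the Sall4a-only arrays. Mbnl1, a splicing regulator, stood at 8.20 and 8.99 in Sall4a-only cells, against 10.36 and 10.35 in depleted cells, with 10.09 and 10.18 in control cells. Col5a2 had 10.94 and 10.65 in control cells and Pla2g4a 9.21 and 9.07, closer to depleted than to Sall4a-only levels.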

How the data were processed

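Total RNA of 8 samples was amplified, labelled and hybridised by the authors to a 1-colour mouse array of 45101 probe sets. The deposited values are linear intensities, 1 per probe set and array, with a call of present, marginal or absent. The submitters' processing notes name RMA, which corrects background, normalises between arrays by quantiles and summarises probes, and so can pull strong global shifts together. The version and the method of the calls are not given in the sources used here. Intensities ran from 9.71 to 34525, and the number of arrays limits the precision.

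Intensities were taken to log2 with no further normalisation. After 64 control probe sets were dropped, 31554 probe sets called present on 2 or more arrays were kept. Of these, 26080 carried a single symbol in the platform annotation, and the brightest of a gene gave 14027 genes. Of all probe sets, 34945 had 1 symbol, 932 several and 9160 none. The 4 group means were fitted over the 8 arrays with limma 3.58.1 in R 4.3.3 (lmFit, eBayes, Benjamini-Hochberg), which was tested on simulated data first. A probe set called present on neither array of a group has only a bound there, given as "at least". Named genes are those with the smallest p, the largest in each class, up to 5 with the smallest p of each list, list members in the classes of both arrays, and a set of lineage regulators; others were picked after their values were seen. Members, classes and lists were chosen with earlier results of these data known.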

Additional observations from a re-analysis of the deposited data

How the results depend on the processing

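The count of genes past an adjusted p of 0.05 was 0 higher and 0 lower with no filter on calls, with presence on 4 or more arrays, with quantile normalisation, with only the 4 arrays of the comparison, with array weights and with a replicate block. It was 3 higher and 3 lower when the probe sets of a gene were averaged, and 2 higher and 6 lower with a trended, robust prior. Leaving out 1 array gave 0 to 42 higher and 0 to 245 lower, both highest without Sall4a-only replicate 2, where the lone Sall4a-only array is assumed to vary like the other groups. At an unadjusted p under 0.05 the counts ran from 278 to 1133 higher and from 279 to 1292 lower. The replicate block, which gave 697 and 534, changed no call. Same-numbered arrays of Sall4a-only and depleted cells had a correlation of deviations of 0.04; over all pairs of groups it ran from -0.12 to 0.57, the highest between control and depleted cells, and the labels give no shared source for a number. Leaving out control or Sall4b-only arrays was added after seeing the data and moved no count by over 1.5 times. With 1.5 log2 in place of 1, the classes held 9 genes higher and 38 lower on both arrays, 12 higher and 187 lower on replicate 1 alone, and 32 higher and 12 lower on replicate 2 alone, since fewer genes reach the larger step. Without a depleted array, 32 to 88 genes were higher on both. For other moves the cause was not tested. No difference of a named gene turned its sign past the threshold. With 2 arrays a group, the probe set's signal over background and the spread between the Sall4a-only arrays limit what could be detected, and RMA values give no read depth.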
